A study of Mus musculus with 8 samples.

Results

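Farnesyl diphosphate, the isoprenoid that ends the mevalonate arm, can be committed to sterols or used outside them, and 10 genes of the non-sterol uses were followed here in mouse sciatic nerve. They were chosen by symbol, through the Ensembl identifiers of the deposited table, from 55487 listed genes, and all 10 had enough counts to be tested. They encode the enzymes that lengthen the isoprenoid chain (Ggps1, Pdss1, Pdss2), that build and phosphorylate dolichol (Dhdds, Nus1, Dolk), and that attach or process protein prenyl groups (Fnta, Fntb, Pggt1b, Zmpste24).

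Polyadenylated RNA of whole sciatic nerves at postnatal day 6 was sequenced from 4 CNP-Cdk7cKO and 4 Ctrl libraries. CNP-Cdk7cKO mice had the genotype CNPcre/+ Cdk7lox/lox, so that Cre expressed from the Cnp locus removes the floxed part of Cdk7 in Schwann cells, the glia that myelinate peripheral axons. Ctrl mice were CNP+/+ Cdk7lox/lox, without Cre but with the same floxed Cdk7 alleles on both chromosomes. The nerve also holds fibroblasts, perineurial, endothelial and immune cells, in which the Cre line is not described as active by the labels, and libraries were not said to come from separate animals, so the p-values here measure spread between libraries, which may be technical. Expression is given as CPM, counts scaled to the size of the library, and each fold change sets CNP-Cdk7cKO over Ctrl. A gene was called when its adjusted p was under 0.05 (edgeR quasi-likelihood test, Benjamini-Hochberg over all 15056 tested genes).

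Farnesyl diphosphate is made from acetyl units by the mevalonate arm, and squalene synthase diverts it to cholesterol, which peripheral myelin needs in large amounts. The same molecule is the starter for geranylgeranyl diphosphate, for the side chain of ubiquinone (the electron carrier of mitochondria) and for dolichol, the lipid on which the sugar tree of N-glycosylation is built. It is also attached directly to proteins that end in a cysteine-containing CaaX motif, among them lamins and small GTPases, which anchors them in membranes.

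The libraries held between 16897242 and 21527891 estimated counts. Cdk7 measured 9.62 to 12.7 CPM in CNP-Cdk7cKO and 20.6 to 22.2 CPM in Ctrl libraries. Summed counts of 10 Schwann cell markers were 100783 to 110533 CPM in CNP-Cdk7cKO and 132449 to 148607 CPM in Ctrl, with 6 of the 10 lower and 0 higher. Of 8 macrophage markers 4 were called higher and 0 lower. Of 8 fibroblast and perineurial markers 2 were called higher and 0 lower, and 1 had a negative log2 fold change. Among 7 endothelial, 4 tested adipocyte and 5 erythroid markers 0 were called. The shares over all tested genes were 5.07% higher and 6.6% lower. Xist and Y-linked transcripts placed 3 Ctrl libraries (2, 3 and 4) as male and the other 5, which are CNP-Cdk7cKO 1 to 4 and Ctrl 1, as female. Skeletal muscle markers took 0.0172% to 0.0745% of counts in CNP-Cdk7cKO and 0.0679% to 0.612% in Ctrl, highest in Ctrl 4, with 18 of 20 markers lower. The part of cell composition, sex and muscle in the results below was not tested beyond the values given beside them, and fewer cells of a type cannot be told apart from less RNA per cell.

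None of the 10 genes was called higher or lower in the knockout nerves, in contrast to the enzymes that supply their substrate. Over all tested genes 11.7% were called, 5.07% higher and 6.6% lower. The 10 genes had a median log2 fold change of 0.03, against 0.00 over all tested genes, and lay between -0.15 (Fnta) and 0.19 (Dolk). At an unadjusted p under 0.05, 1 of the 10 (Fnta) passed in edgeR, where 26.1% of all tested genes did, and DESeq2 also called 0 of the 10. The CNP-Cdk7cKO and Ctrl values overlapped for all 10, while 18.8% of all tested genes had groups that did not overlap (9.34% with CNP-Cdk7cKO higher, 9.51% with it lower). The 95% intervals of the 10 fold changes ran from 0.786-fold at the lowest bound (Pdss2) to 1.31-fold at the highest (Pdss1 and Dolk).

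**Figure D1:**
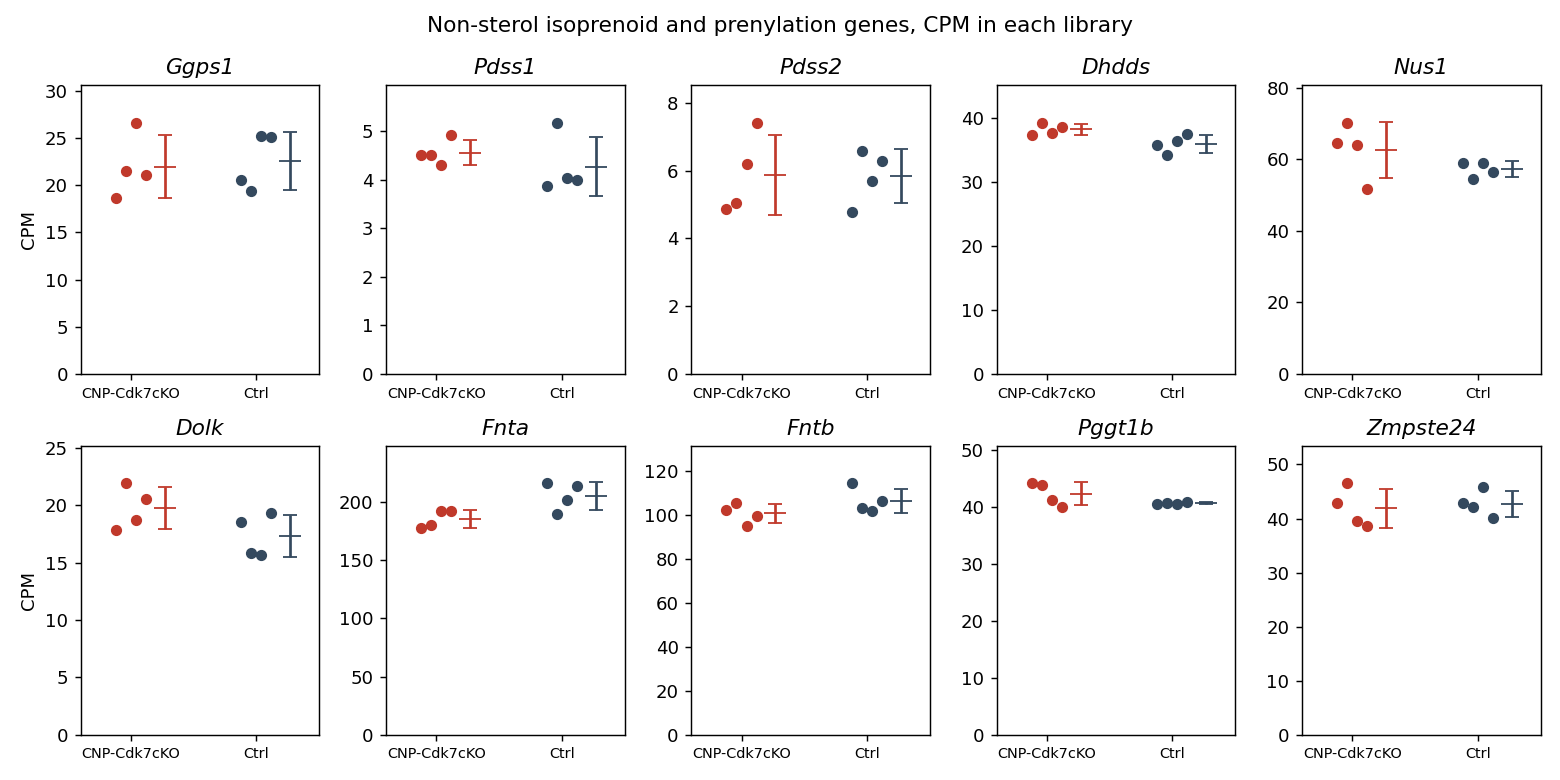
CPM (y axis, from 0) of each of the 10 genes in the 4 CNP-Cdk7cKO (left, red) and 4 Ctrl (right, dark) libraries; points are libraries and the bar beside them is the mean ± SD. In every panel the groups overlap, with Fnta lower on average in CNP-Cdk7cKO (185 against 205 CPM) and Dolk higher (19.7 against 17.3 CPM).

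On the substrate side, Fdps, the synthase that makes farnesyl diphosphate, measured 274.7, 271.9, 282.5 and 287.7 CPM in CNP-Cdk7cKO 1 to 4, against 475.3, 432.6, 447.2 and 425.2 CPM in Ctrl 1 to 4. Each knockout library was below each control library (log2 fold change -0.67 ± 0.04 SE, edgeR adjusted p = 2.51e-05). All 7 genes analysed of the mevalonate arm fell, from Acat2 to Fdps, with a median log2 fold change of -0.63. They included Pmvk, the second mevalonate kinase (-0.48 ± 0.05 SE), and Idi1, the isomerase that makes the starter unit (-0.63 ± 0.07 SE). On the sterol side, Fdft1, the squalene synthase that commits farnesyl diphosphate to cholesterol, measured 184.7 ± 5.64 CPM in CNP-Cdk7cKO and 238.1 ± 10.5 CPM in Ctrl (SD, n = 4 each), a log2 fold change of -0.37 (edgeR adjusted p = 0.000748). From squalene synthase to cholesterol 11 of 12 genes fell and 0 rose, with a median of -0.41. Lss (-0.83), Cyp51 (-0.66), Msmo1 (-0.56) and Tm7sf2 (-0.51), enzymes that close and then trim the sterol ring, had the smallest p-values among them.

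**Figure D2:**
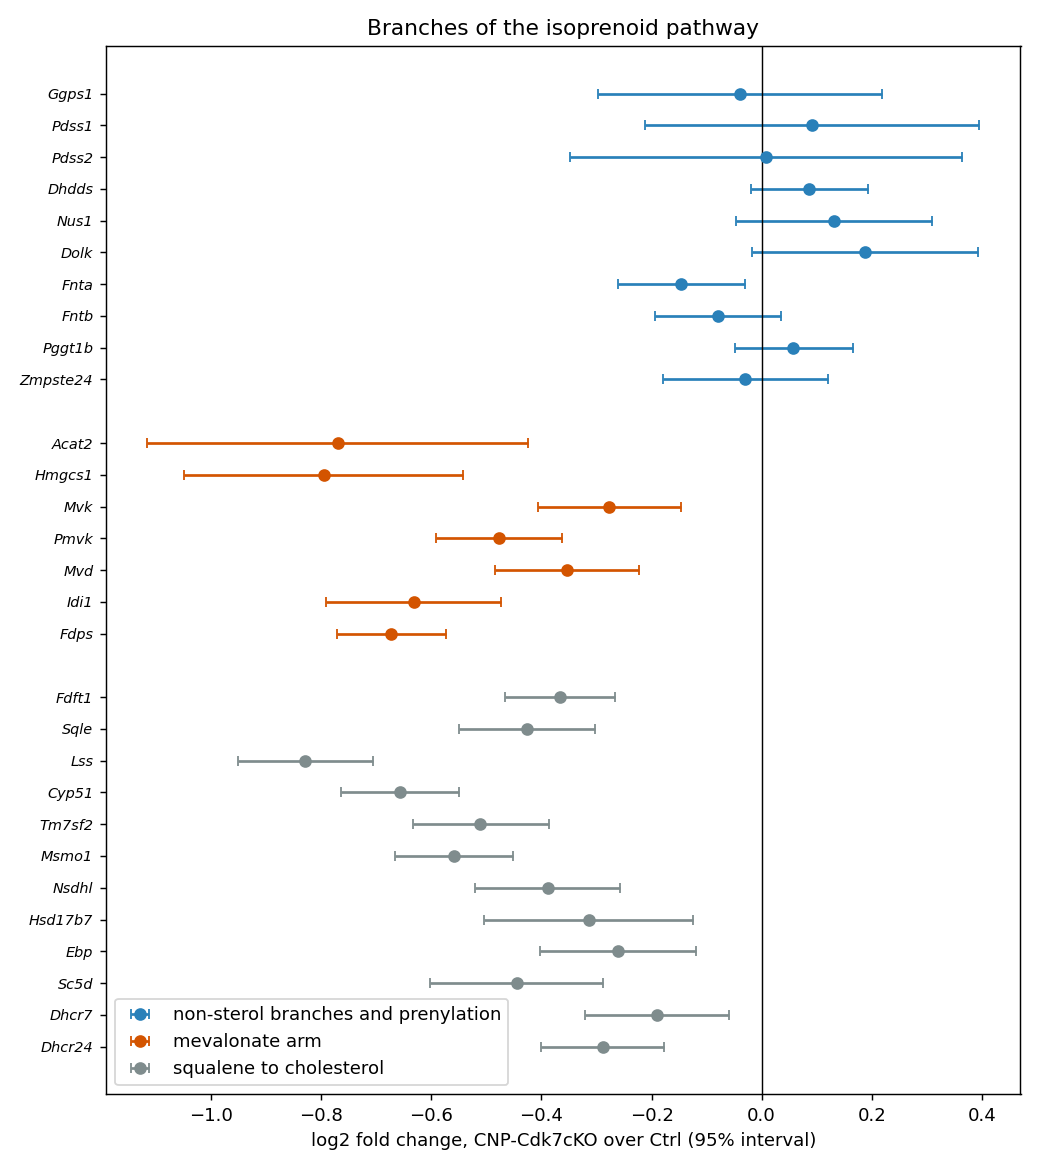
Log2 fold change (x axis, CNP-Cdk7cKO over Ctrl) with its 95% interval for the 10 genes of the non-sterol branches (blue, top), the 7 of the mevalonate arm (orange) and the 12 from squalene synthase to cholesterol (grey). The interval of Fdps ends at -0.57 at its upper bound, and the lowest bound among the 10 genes is -0.35. Upper bounds of other genes reach -0.15 in the mevalonate arm and -0.06 from squalene synthase to cholesterol. Some of these intervals overlap those of the 10 genes.

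The difference from Fdps was itself tested within each library, as the log2 ratio of each gene's CPM to that of Fdps, which no library scaling can alter. For Ggps1, the ratio was -3.88, -3.66, -3.41 and -3.77 in CNP-Cdk7cKO 1 to 4, against -4.53, -4.48, -4.15 and -4.08 in Ctrl 1 to 4. For each of the 10 genes the 4 knockout ratios were above the 4 control ratios, by 0.53 (Fnta) to 0.86 (Dolk) on the log2 scale. Each reached a two-sided exact permutation p of 0.0286, the smallest that 4 against 4 libraries allow, and 0.04 when adjusted over 14 ratios. All 10 ratios share Fdps and its fall, so they do not count as 10 separate results. They were chosen after the data were seen, with Fdps already lower without overlap and the 10 genes little changed. Their p-values restate that pattern and add no separate support for it. Fdps also shares 26.7% of its merged exon length with Gm43738, an annotated gene on the same strand, so that counts could have been split between them. In the female libraries alone, with Ctrl 1 as the lone control, the differences were 0.55 (Fnta) to 1.05 (Pdss2). With only 5 libraries and a lone control the permutation test could not pass at any difference, so it decides nothing here.

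**Figure D3:**
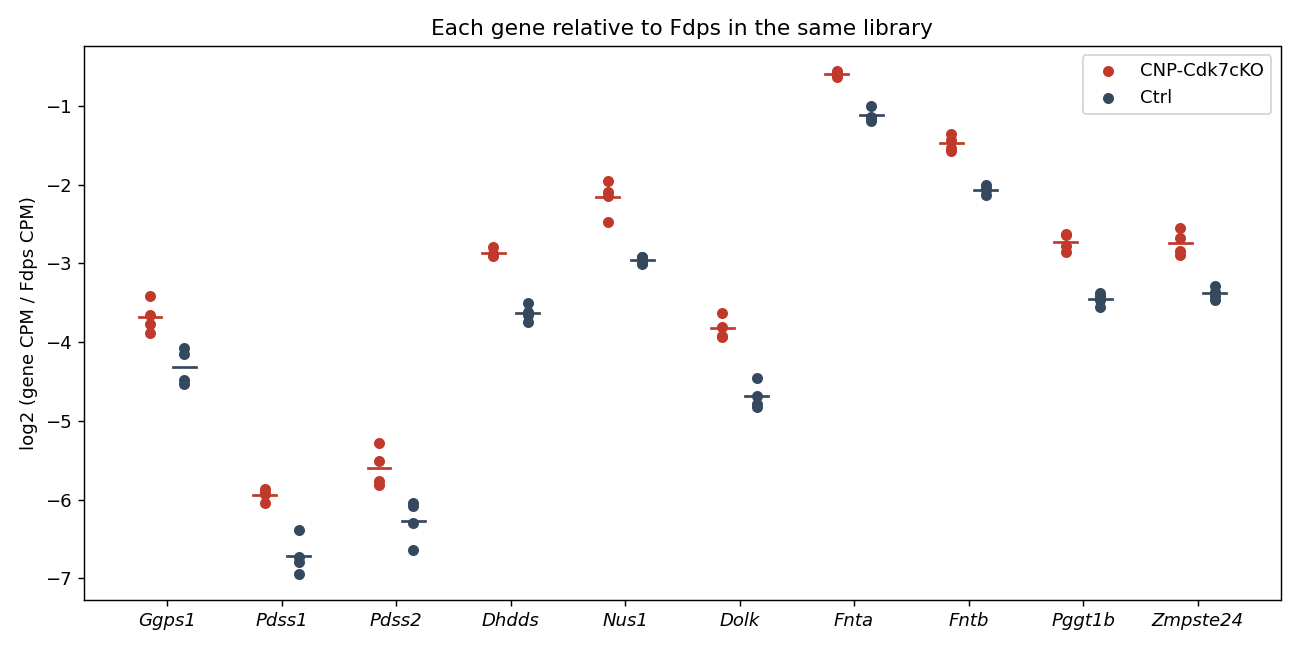
Log2 ratio of each gene's CPM to the CPM of Fdps in the same library (y axis), for 4 CNP-Cdk7cKO (left of each pair, red) and 4 Ctrl (right, dark) libraries; horizontal lines are group means. The knockout libraries lie above the control libraries for all 10 genes, by 0.53 to 0.86.

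Promoter sequence is shown for 3 genes, chosen after their values were seen, that stand on the different sides of this contrast: Ggps1, which acts directly on farnesyl diphosphate, Dolk, the member with the highest log2 fold change, and Hmgcs1, a synthase at the start of the mevalonate arm, which fell (932.0 CPM in CNP-Cdk7cKO, 1617.7 CPM in Ctrl, log2 fold change -0.80). The 250 bases before the RefSeq start (GRCm38.p6) are given 5′ to 3′ on the gene's strand, at chr13:14063489-14063738 (minus) for Ggps1, chr2:30286355-30286604 (minus) for Dolk and chr13:119690101-119690350 (plus) for Hmgcs1. Capitals mark CCAAT, the box bound by NF-Y, and TCACNCCAC, a form of the sterol regulatory element bound by SREBP, each searched on both strands.
Ggps1: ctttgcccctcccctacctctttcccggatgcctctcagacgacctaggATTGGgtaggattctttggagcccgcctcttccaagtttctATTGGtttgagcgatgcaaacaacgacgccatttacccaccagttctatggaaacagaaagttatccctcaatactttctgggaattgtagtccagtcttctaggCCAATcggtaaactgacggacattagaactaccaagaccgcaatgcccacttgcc
Dolk: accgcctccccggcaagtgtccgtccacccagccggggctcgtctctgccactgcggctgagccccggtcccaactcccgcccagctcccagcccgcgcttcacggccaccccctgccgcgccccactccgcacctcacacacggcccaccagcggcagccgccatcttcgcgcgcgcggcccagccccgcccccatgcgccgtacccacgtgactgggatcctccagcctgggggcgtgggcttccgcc
Hmgcs1: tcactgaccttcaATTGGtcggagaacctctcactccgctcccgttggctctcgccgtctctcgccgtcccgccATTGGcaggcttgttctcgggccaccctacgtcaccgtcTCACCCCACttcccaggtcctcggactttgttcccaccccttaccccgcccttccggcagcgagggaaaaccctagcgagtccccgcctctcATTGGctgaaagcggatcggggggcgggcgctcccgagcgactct
Of the 10 genes, 8 had a promoter in the table, and Fnta and Pggt1b are named only. TCACNCCAC was found in 0 of these 8, in 1 of 6 mevalonate arm genes (Hmgcs1), in 0 of 9 from squalene to cholesterol and in 1.05% of all 32851 promoter windows. CCAAT was found in 4 of the 8 (Ggps1, Dhdds, Nus1 and Zmpste24), in 5 of 6 mevalonate arm genes, in 9 of 9 of the squalene to cholesterol genes and in 33.8% of all windows. The motifs shown were 2 of 5 searched, chosen after all 5 had been looked at. The GC box bound by Sp1 (GGGCGG) was found in 4 of the 8, in 5 of 6 mevalonate arm genes, in 9 of 9 from squalene to cholesterol and in 32.7% of all windows, the same gene counts as the CCAAT box. An E-box form (TCACGTG) was found in 2 of the 8, in 0 of 6, in 2 of 9 and in 3.13% of all windows. The form TCACCCCAC of the sterol regulatory element was found in 0 of the 8, in 1 of 6, in 0 of 9 and in 0.496% of all windows. A gene was counted when any of its windows matched, while the share over all windows counts each window singly. The gene counts and these shares are therefore unlike measures. These are matches of letters in a short window and say nothing of binding.

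The 3 chain-lengthening genes had the highest biological coefficients of variation in edgeR, at 0.118 (Ggps1), 0.128 (Pdss1) and 0.158 (Pdss2). The other genes of the 10 reached at most 0.0949 (Dolk). The plain spread had another order, as the SD of Pdss1 in CNP-Cdk7cKO was 5.69% of its mean and that of Nus1 12.3%. Ggps1, on chromosome 13 from 14050659 to 14063488 (GRCm38, minus strand), makes geranylgeranyl diphosphate, the donor for Rab and other small GTPases. It measured 18.6, 21.5, 26.6 and 21.1 CPM in CNP-Cdk7cKO 1 to 4, against 20.5, 19.4, 25.2 and 25.1 CPM in Ctrl 1 to 4, and the groups overlapped throughout (log2 fold change -0.04 ± 0.12 SE, edgeR adjusted p = 0.865). Its sign turned positive in 5 of the 16 alternatives, and it was not called in any of them. Merged exons of Ggps1 overlap the opposite-strand gene Arid4b over 257 bases, which is 5.44% of their length.

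Pdss1 and Pdss2, on chromosomes 2 and 10, encode the subunits of the enzyme that builds the ubiquinone side chain. Pdss1 measured 4.50, 4.50, 4.29 and 4.91 CPM in CNP-Cdk7cKO 1 to 4, against 3.86, 5.17, 4.04 and 4.00 CPM in Ctrl 1 to 4. Apart from Ctrl 2, which was the highest of all 8, the knockout libraries were above the controls, and the log2 fold change of 0.09 had a 95% interval from -0.21 to 0.40 (edgeR adjusted p = 0.722). Pdss2 measured 4.86, 5.03, 6.18 and 7.41 CPM in CNP-Cdk7cKO 1 to 4, against 4.77, 6.57, 5.68 and 6.29 CPM in Ctrl 1 to 4. The widest interval of the 10 genes was that of Pdss2 (log2 fold change 0.01, from -0.35 to 0.37). With Xist as a covariate the log2 fold changes were 0.24 for Pdss1 and 0.31 for Pdss2, which did not pass. In the female libraries alone they were 0.23 for Pdss1 and 0.30 for Pdss2. Ctrl 1 is the only female control, so both settings, here and below, rest largely on it and are not separate checks. These estimates rest on 63 to 100 counts per library for Pdss1 and 78 to 151 for Pdss2, against 3430 to 4375 for Fnta. The log2 ratio of Pdss1 to Pdss2 averaged -0.35 ± 0.25 in CNP-Cdk7cKO and -0.45 ± 0.16 in Ctrl (SD, n = 4 each; two-sided exact permutation p = 0.486).

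Of 11 genes that build and modify the ubiquinone ring, 2 fell and 0 rose (median log2 fold change -0.11). The falls are 18.2% of this short list, against 6.6% of all tested genes. Coq7, the hydroxylase late in the pathway, measured 19.6, 19.0, 22.2 and 20.4 CPM in CNP-Cdk7cKO 1 to 4, against 23.6, 24.7, 23.7 and 28.0 CPM in Ctrl 1 to 4 (log2 fold change -0.30, edgeR adjusted p = 0.025). Coq8a, an atypical kinase-like protein of the same pathway, measured 12.2, 14.2, 12.6 and 12.2 CPM in CNP-Cdk7cKO 1 to 4, against 14.3, 18.8, 21.9 and 40.3 CPM in Ctrl 1 to 4 (log2 fold change -0.90, edgeR adjusted p = 0.0441). Ctrl 4, with the highest Coq8a, also had the highest share of muscle transcripts. Coq8a was still called lower without Ctrl 4, at a log2 fold change of -0.52 (edgeR adjusted p = 0.0298), and without Ctrl 1 (-1.08, edgeR adjusted p = 0.0135). Without any other single library it was not called (edgeR adjusted p from 0.0549 to 0.102). The muscle share nearly split the groups (0.0172% to 0.0745% in CNP-Cdk7cKO, 0.0679% to 0.612% in Ctrl). A muscle covariate therefore cannot be separated well from genotype, and the part of muscle in this call was not tested. Once the muscle markers were a covariate the log2 fold change of Coq8a was 0.17 (edgeR adjusted p = 0.793). In the female libraries alone it was -0.16. The 2 calls fell to 0 without CNP-Cdk7cKO 1, CNP-Cdk7cKO 2 or Ctrl 2, to 0 with either covariate and in the female libraries, and to 1 without CNP-Cdk7cKO 3, CNP-Cdk7cKO 4, Ctrl 3 or Ctrl 4.

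The dolichol genes had positive log2 fold changes in all 3 cases, and none passed. Dhdds and Nus1 form the cis-prenyltransferase that elongates farnesyl diphosphate to the dolichol precursor, with Dhdds as the catalytic subunit. Dhdds, on chromosome 4, measured 37.2, 39.2, 37.6 and 38.6 CPM in CNP-Cdk7cKO 1 to 4, against 35.7, 34.1, 36.3 and 37.5 CPM in Ctrl 1 to 4. The groups met only where CNP-Cdk7cKO 1 lay below Ctrl 4, and the log2 fold change was 0.09 ± 0.05 SE (edgeR adjusted p = 0.291) and 0.16 with the muscle covariate, which did not pass.

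Nus1, on chromosome 10, measured 64.4, 70.2, 64.1 and 51.8 CPM in CNP-Cdk7cKO 1 to 4, against 59.0, 54.4, 58.9 and 56.3 CPM in Ctrl 1 to 4. CNP-Cdk7cKO 1 to 3 were above every control and CNP-Cdk7cKO 4 was below every control (log2 fold change 0.13 ± 0.08 SE, edgeR adjusted p = 0.336). Without CNP-Cdk7cKO 4 the log2 fold change was 0.21 and passed (edgeR adjusted p = 0.0296), and without any other library it did not (adjusted p from 0.363 to 0.621). It was 0.08 with Xist as a covariate and in the female libraries alone. The log2 ratio of Dhdds to Nus1 averaged -0.71 ± 0.19 in CNP-Cdk7cKO and -0.67 ± 0.06 in Ctrl (SD, n = 4 each; two-sided exact permutation p = 0.743).

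Dolk, the kinase that turns dolichol into dolichol phosphate, lies on chromosome 2 from 30284231 to 30286334 (GRCm38, minus strand). It measured 17.8, 21.9, 18.7 and 20.5 CPM in CNP-Cdk7cKO 1 to 4, against 18.5, 15.8, 15.7 and 19.3 CPM in Ctrl 1 to 4. CNP-Cdk7cKO 2 and 4 were above every control and the other two lay within the control range. The log2 fold change of 0.19 had a 95% interval from -0.02 to 0.39 (edgeR adjusted p = 0.23), and it was 0.09 both with Xist as a covariate and in the female libraries alone, but 0.34 with the muscle covariate (edgeR adjusted p = 0.343).

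Downstream of dolichol phosphate, 4 of 26 genes of the sugar transfer to proteins rose and 0 fell, which is 15.4%, against 5.07% of all tested genes (median log2 fold change 0.07). Dad1, Ddost and Rpn2 are subunits of the oligosaccharyltransferase, and Dpm1 is the catalytic subunit of dolichol-phosphate mannose synthase. Ddost measured 233.8, 253.8, 258.2 and 259.1 CPM in CNP-Cdk7cKO 1 to 4, against 221.0, 208.1, 207.2 and 229.2 CPM in Ctrl 1 to 4 (log2 fold change 0.22 ± 0.05 SE, edgeR adjusted p = 0.0194). Dad1 (0.21), Rpn2 (0.19) and Dpm1 (0.28) rose by similar amounts, without overlap between the groups. The 4 rises fell to 1 without Ctrl 2, to 2 without Ctrl 3 or CNP-Cdk7cKO 3, and to 0 under either covariate (Xist or muscle) or in the female libraries alone.

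Fnta, on chromosome 8, encodes the alpha subunit that farnesyltransferase and type I geranylgeranyl transferase share, and it was the nearest of the 10 genes to a call. It measured 177.4, 179.8, 191.9 and 192.6 CPM in CNP-Cdk7cKO 1 to 4, against 215.9, 189.9, 201.5 and 213.3 CPM in Ctrl 1 to 4. CNP-Cdk7cKO 1 and 2 lay below every control, and CNP-Cdk7cKO 3 and 4 lay above Ctrl 2 and below the other controls. The log2 fold change was -0.15 ± 0.05 SE, with a 95% interval from -0.26 to -0.03 and an unadjusted p of 0.0179, which did not pass over all genes (edgeR adjusted p = 0.102; DESeq2 adjusted p = 0.0509). It stayed negative in all 16 alternatives, between -0.12 and -0.22, and passed in none.

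The beta subunits set the prenyl group. Fntb, of farnesyltransferase, on chromosome 12, measured 102.2, 105.6, 95.1 and 99.7 CPM in CNP-Cdk7cKO 1 to 4, against 114.3, 103.1, 101.8 and 106.2 CPM in Ctrl 1 to 4, and did not pass (log2 fold change -0.08, edgeR adjusted p = 0.367), nor with Xist as a covariate (-0.18) or in the female libraries alone (-0.19). CNP-Cdk7cKO 3 and 4 were below every control and the other knockout libraries lay within the control range. Fntb shares 257 bases of exon, 6.45% of its merged length, with Churc1 on the same strand.

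Pggt1b, of type I geranylgeranyl transferase, on chromosome 18, measured 44.1, 43.9, 41.2 and 40.0 CPM in CNP-Cdk7cKO 1 to 4, against 40.5, 40.7, 40.5 and 40.9 CPM in Ctrl 1 to 4. CNP-Cdk7cKO 1, 2 and 3 were above every control and CNP-Cdk7cKO 4 below, for a log2 fold change of 0.06 (edgeR adjusted p = 0.488), which was 0.11 with the muscle covariate and did not pass. The 4 controls spanned less than 1 CPM. Relative to the shared subunit, the log2 ratio of Pggt1b to Fnta averaged -2.13 ± 0.13 in CNP-Cdk7cKO and -2.33 ± 0.09 in Ctrl (SD, n = 4 each), a difference of 0.20 that did not pass (two-sided exact permutation p = 0.0571, 0.0727 adjusted over 14 ratios). That of Fntb to Fnta averaged -0.88 ± 0.12 in CNP-Cdk7cKO and -0.95 ± 0.06 in Ctrl (SD, n = 4 each; two-sided exact permutation p = 0.371).

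Zmpste24, on chromosome 4, encodes the zinc protease that trims CaaX ends and matures prelamin A. It measured 42.8, 46.5, 39.5 and 38.7 CPM in CNP-Cdk7cKO 1 to 4, against 42.8, 42.1, 45.9 and 40.1 CPM in Ctrl 1 to 4 (log2 fold change -0.03, edgeR adjusted p = 0.825). The highest and the lowest of the 8 values were both in knockout libraries. Of 8 other genes of prenylation and CaaX processing, among them the Rab transferase subunits and Icmt, 0 were called in edgeR and in DESeq2, and 0 had an unadjusted p under 0.05 in edgeR. Pcyox1, the lysosomal prenylcysteine oxidase and the most abundant of them, measured 168.9 ± 7.09 CPM in CNP-Cdk7cKO and 162.7 ± 5.16 CPM in Ctrl (SD, n = 4 each).

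Levels of the 10 genes spanned a wide range when set per length of merged exons, a measure that is too low for genes whose annotated exons are mostly unused. Fnta was highest, at 61.6 CPM per kb in CNP-Cdk7cKO and 68.1 in Ctrl, followed by Fntb (25.2 and 26.7) and Nus1 (12.9 and 11.7). Dhdds (10.1 and 9.49) and Dolk (9.37 and 8.23) overlapped between libraries, as did Zmpste24 (5.86 and 5.98) with Ggps1 (4.65 and 4.78). Pggt1b (3.60 and 3.46) came next, with the longest merged exons of the 10 (11749 bases). Pdss1 (1.07 and 1.00) and Pdss2 (0.985 and 0.977) were lowest and overlapped each other.

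Most genes of the proteins that receive prenyl groups were not called, with exceptions in both directions. Of 20 tested genes of farnesylated proteins, 3 rose and 1 fell, or 15% and 5%, against 5.07% and 6.6% of all tested genes. Lmna, which encodes the prelamin A that Zmpste24 cleaves, measured 448.9, 452.8, 433.6 and 470.5 CPM in CNP-Cdk7cKO 1 to 4, against 356.2, 371.4, 390.0 and 355.7 CPM in Ctrl 1 to 4. The groups did not overlap (log2 fold change 0.29 ± 0.04 SE, edgeR adjusted p = 0.00228). Ptp4a3, a phosphatase (0.52), and Rnd3, an atypical small GTPase (0.39), also rose.

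The member of that list that fell was Cnp, whose myelin protein carries a C-terminal prenyl group. It measured 1389 ± 61.6 CPM in CNP-Cdk7cKO and 3134 ± 137 CPM in Ctrl (SD, n = 4 each; log2 fold change -1.17). Because Cre sits at this locus in the knockout, an effect of the changed Cnp allele and a change in expression cannot be told apart. The number of falls in this list was 3 by DESeq2 and without CNP-Cdk7cKO 3, and 2 without a count filter and with the replicate number as a block. Rises numbered 3 or 4 whichever library was left out, 2 with Xist as a covariate, and 1 with the muscle covariate or in the female libraries alone.

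Among 22 tested genes of G protein gamma subunits and of small GTPases other than Rab that receive geranylgeranyl, 1 rose (4.55%) and 2 fell (9.09%). The shares over all tested genes were 5.07% and 6.6%, and the median log2 fold change of these 22 genes was -0.02. Gng7 (-0.33) and Gng2 (-0.23), both gamma subunits of heterotrimeric G proteins, fell and Rhoj, a small GTPase of endothelium, rose (0.15). Of 22 tested Rab genes 0 rose and 1 fell, Rab11b (-0.19), a regulator of recycling endosomes, with a median of -0.04. That fall is 4.55% of the Rab genes, against 6.6% of all tested genes. The Rab call was lost when any library other than CNP-Cdk7cKO 4 was left out, and the 3 calls among these 22 genes of small GTPases and gamma subunits were reduced to 1 without CNP-Cdk7cKO 1, 2 or 3 or Ctrl 2, 3 or 4, and to 2 without Ctrl 1. With the muscle covariate or in the female libraries alone 0 of these 3 calls were left, and with Xist as a covariate or the replicate number as a block 0 genes rose and 1 fell. Without a count filter 0 rose and 2 fell. For Rab genes the falls numbered 0 with either covariate and in the female libraries, and 2 by DESeq2.

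**Figure D4:**
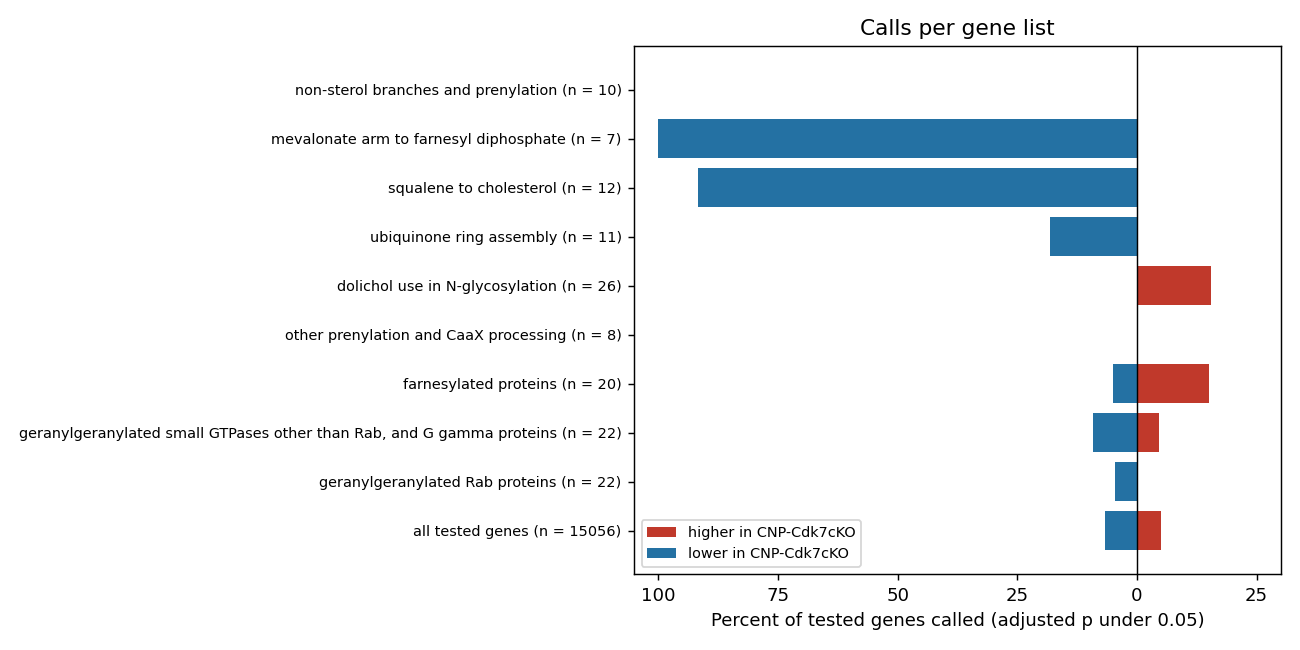
Percent of tested genes in each list called lower (left of 0, blue) or higher (right of 0, red) in CNP-Cdk7cKO at an adjusted p under 0.05 (edgeR quasi-likelihood), with the number of tested genes in parentheses. The mevalonate arm reaches 100% lower and the squalene to cholesterol list 91.7%, while the non-sterol list has 0% in either direction and all tested genes have 6.6% lower and 5.07% higher.

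Across libraries, the median deviation of the 10 genes from their control mean was 0.03, 0.10, 0.04 and -0.05 on the log2 scale in CNP-Cdk7cKO 1 to 4, and 0.00, -0.06, -0.02 and 0.03 in Ctrl 1 to 4. Their summed level was 514.0 to 538.2 CPM in CNP-Cdk7cKO and 511.4 to 555.9 CPM in Ctrl. For comparison, the summed level of the mevalonate arm was 1660 to 2054 CPM in CNP-Cdk7cKO and 2814 to 3495 CPM in Ctrl, with no overlap. Ctrl 1, the female control, lay inside the range of the male controls for 5 of the 10 genes, above it for 3 and below it for 2. In the female libraries alone, where Ctrl 1 is the lone control, 9 of the 10 genes kept the sign they had over all libraries. Their median log2 fold change there was 0.08.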

How the data were processed

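RNA (250 ng per library, per the labels' protocols) went into stranded libraries. The deposited estimated counts come from STAR and Salmon on GRCm38, per the submitters' processing notes; their versions and settings, and the annotation used, are not given in the sources. Whether counting used strand is not stated, so overlaps with opposite-strand genes are given. The 8.29% of values with decimals were rounded, moving library totals by 0.000113% or less. Replicates differed by more than counting noise (chi-square per degree of freedom 3.86 to 17.6). Of 55487 identifiers 55141 matched a symbol; Ptp4a1 matched 2 and was left out. A gene of the mevalonate arm is not reported here.

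A filterByExpr filter (count of at least 10, total of at least 15) left 15056 genes, which were normalized by TMM and compared with the quasi-likelihood test of edgeR 4.0.16 (R 4.3.3); standard errors were derived from the F statistic. Alternatives were other filters, RLE factors, DESeq2 1.42.0, the replicate number as a block, Xist or muscle covariates, female libraries alone and each library left out. Ratios within libraries were compared by exact permutation and were chosen after the data were seen, as were their alternatives. Members and lists were chosen with earlier results of these data known. All 10 members, Cdk7, Cnp, Fdps and Fdft1 were named, and from each list up to 4 called genes with the smallest p, or the most abundant where none was called. Hmgcs1 was named by this rule, and its promoter was chosen after its values were seen. Acat2 was named outside the rule, after its values were seen. Steps were tested on simulated counts. Sequences and gene models are from RefSeq (GRCm38.p6) and GENCODE M21.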

Additional observations from a re-analysis of the deposited data

Results flagged for a closer look

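A library stood apart from the other 3 of its group, by Dixon's ratio of gap to range (critical value 0.829), in 8 of the 70 groups of 4 values examined, where chance flags about 1 in 20. Among the 10 genes this was Pdss1 in Ctrl 2, at 5.17 CPM against 3.86 to 4.04 CPM in the other controls. Among the other genes named, 4 knockout values stood apart, which were Cyp51 in CNP-Cdk7cKO 4 (235.5 CPM, others 249.5 to 251.0), Ptp4a3 in CNP-Cdk7cKO 3 (86.4 CPM, others 99.6 to 100.3), Gng2 in CNP-Cdk7cKO 4 (223.3 CPM, others 270.8 to 275.5) and Rhoj in CNP-Cdk7cKO 3 (79.0 CPM, others 77.2 to 77.4). The 3 control values were Lss in Ctrl 4 (242.0 CPM, others 261.4 to 264.1), Dad1 in Ctrl 2 (82.5 CPM, others 77.5 to 78.2) and Ptp4a3 in Ctrl 1 (58.8 CPM, others 69.6 to 70.9).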

How the results depend on the processing

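The count of called members was 0 in every alternative but the one without CNP-Cdk7cKO replicate 4, where 1 (Nus1) was called higher; with a library left out it ranged from 0 to 1 higher and was 0 lower throughout. All genes called numbered 75 higher and 163 lower with Xist as a covariate, 104 and 155 with the muscle markers, and 37 and 77 in the female libraries alone, against 763 and 994, and 470 to 655 higher and 653 to 860 lower with a library left out; the cause was not tested. With the replicate number as a block 682 were higher, 926 lower and 0 members called; same-numbered libraries deviated together with correlations of 0.0089 to 0.127, and CNP-Cdk7cKO 1 correlated more with Ctrl 3 (0.0694) than with Ctrl 1 (0.0438), so the numbers were not taken as pairs. Small log2 fold changes turned sign, none of them called. Ggps1 turned to 0.11 (Xist) and 0.10 (female libraries), and with a library left out it ranged from -0.14 to 0.03, positive without CNP-Cdk7cKO 1, Ctrl 3 or Ctrl 4. Pdss2 ranged from -0.12 to 0.09, negative without CNP-Cdk7cKO 3 or 4 or Ctrl 1 or 3, and Zmpste24 from -0.08 to 0.01, positive without CNP-Cdk7cKO 4 or Ctrl 3. Coq8a turned to 0.17 with the muscle covariate. The difference in log2 ratio of Dhdds to Nus1 turned to 0.01 without CNP-Cdk7cKO 2 and 0.02 in the female libraries, and that of Pdss1 to Pdss2 to -0.04 there; without CNP-Cdk7cKO 4 the first was -0.13 and passed (exact permutation adjusted p = 0.04) and Pdss1 to Fdps (0.75) did not (exact permutation adjusted p = 0.0667).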
